A study of Homo sapiens with 6 samples.

Results

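The 38 genes described here code for the transcription factor ATF4, factors that pair with it or act beside it, feedback and signalling proteins among its targets, enzymes that make amino acids and one-carbon units, amino acid transporters, and aminoacyl-tRNA synthetases. They were taken by symbol from the deposited mRNA table, where all 38 have a row among 19912. The cells are labelled as Panc-1, a line from a human ductal carcinoma of the pancreas, with a gemcitabine resistance phenotype, so both groups carry the resistance to this nucleoside drug. There were 3 libraries labelled shSRSF3, a short hairpin RNA against the splicing factor gene SRSF3, and 3 libraries labelled control. The labels name no hairpin sequence, culture, clone or batch, so p-values reflect the spread among these 6 libraries alone, and that spread may be technical.

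ATF4 is made when the translation factor eIF2 is phosphorylated, as happens when amino acids run short, when unfolded proteins load the endoplasmic reticulum or when mitochondria are stressed. It binds DNA as a dimer, often with a C/EBP protein, at short elements near genes for amino acid uptake, amino acid synthesis and tRNA charging. Several of its targets, such as TRIB3 and PPP1R15A, then damp the response. In bulk RNA, a lower value from fewer expressing cells and one from less RNA per cell cannot be told apart.

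The sequences below show the element that ATF4 dimers are known to bind, where it lies in RefSeq promoter windows of GRCh38.p14. Each window runs from 250 bases before to 50 bases after an annotated start of transcription. The motif searched was TGATGNAA, on both strands (TTNCATCA on the other). It was found in 11 of the 32 genes with a window (34.4%), against 1217 of all 27305 genes with a RefSeq window (4.46%). That wider set was not limited to genes of the mRNA table. The 11 genes were ASNS, CHAC1, CEBPG, SLC1A4, SLC1A5, SLC3A2, SLC7A1, AARS, GARS, MARS and NARS. A match is a description of letters and not a measured binding site. Capitals mark the motif, and each stretch is written 5′ to 3′ in the direction of the gene.
ASNS, chr7:97872433-97872512, minus strand: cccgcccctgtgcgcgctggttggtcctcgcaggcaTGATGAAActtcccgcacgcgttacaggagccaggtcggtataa
CHAC1, chr15:40953226-40953305, plus strand: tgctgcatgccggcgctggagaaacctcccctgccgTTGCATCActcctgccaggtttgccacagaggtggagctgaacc
AARS, chr16:70289650-70289729, minus strand: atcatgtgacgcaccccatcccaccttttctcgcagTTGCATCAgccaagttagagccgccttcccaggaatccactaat
CEBPG, chr19:33374060-33374089, plus strand: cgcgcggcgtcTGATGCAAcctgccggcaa
SLC3A2, chr11:62881725-62881748, plus strand: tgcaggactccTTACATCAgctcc
SLC1A4, chr2:64989381-64989410, plus strand: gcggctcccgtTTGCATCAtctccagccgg
SLC1A5, chr19:46784893-46784922, minus strand: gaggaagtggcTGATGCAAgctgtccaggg
SLC7A1, chr13:29595663-29595692, minus strand: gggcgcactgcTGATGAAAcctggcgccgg
MARS, chr12:57488053-57488082, plus strand: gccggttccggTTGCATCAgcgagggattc

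In the first 3 genes the motif lies before the annotated starts, and in the others it reaches into or follows one of them. The motif begins 68 bases before a start of ASNS, 209 before that of CHAC1 and 187 before that of AARS. The stretches are those of the 8 genes with the smallest adjusted p among holders of the motif, and ASNS, the textbook case of this element, was added after its values were seen. Among genes with a window, 5 of 14 that passed the test below as lower held the motif (35.7%), and so did 5 of 14 that were tested and did not pass (35.7%).

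Expression was deposited as FPKM, fragments scaled by gene length and by library total, so levels can be compared between genes per length. Library totals recovered from the steps of the values ran from 24558238 to 27351642 fragments. SRSF3, the target of the hairpin, stood at 37.5 ± 0.900 FPKM in the shSRSF3-labelled libraries and at 38.6 ± 1.40 FPKM in the control libraries (SD, n = 3 each; log2 change -0.04, 95% interval from -0.15 to 0.07, limma adjusted p = 0.612; exact two-sided permutation p = 0.3, where 0.1 is the smallest possible). No fall of the targeted gene was thus detected, and directions are given for libraries by their labels only. Epithelial markers were abundant, with KRT8 at 1561 to 1919, KRT18 at 1345 to 2067, KRT19 at 377.6 to 444.5 and EPCAM at 153.5 to 180.7 FPKM, while KRT7 reached at most 0.241 FPKM. Vimentin (VIM), commonly high in PANC-1, was listed at no more than 0.0389 FPKM in any library, which differs from that line if read as a level. Values at or near 0 in this table need not mean that a gene was silent, since VARS and SARS2, synthetases that every cell uses, were listed at 0 in all 6 libraries and the chaperone gene HYOU1 had at most 2 fragments. The 13 markers of leukocytes, endothelium, fibroblasts, acinar cells and islets summed to 0.539 to 0.663 FPKM in the shSRSF3-labelled libraries and 0.581 to 1.27 FPKM in the control libraries, and 4 of them (PTPRC, COL1A2, INS and GCG) were at 0 in all 6.

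Library 1 of the shSRSF3-labelled group stood apart. Over genes, the chi-square per degree of freedom between recovered fragments was 22.0 and 41.0 between it and shSRSF3-labelled libraries 2 and 3, and 9.03 between those 2, against 3.26 to 5.88 between control libraries. Set against the control libraries, the value was 37.6 to 54.5 for shSRSF3-labelled library 1, 13.5 to 23.8 for library 2 and 13.1 to 15.2 for library 3. Library 3 was thus nearer to every control library than to shSRSF3-labelled library 1. The 13 mitochondrial mRNAs summed to 108068 FPKM in shSRSF3-labelled library 1, against 84716 and 73651 FPKM in shSRSF3-labelled libraries 2 and 3 and 70369 to 74760 FPKM in the control libraries. Of these 13 mRNAs 12 had a log2 change above 0 (median 0.36), and 2 rose (MT-ND2 and MT-ND6), against 10.9% of all tested genes. Rises numbered 7 with voom or without shSRSF3-labelled library 3, and 4 without library 1. There were 6 with robust empirical Bayes, the replicate block or a minimum mean of 5 FPKM. They numbered 0 without any 1 of the control libraries or shSRSF3-labelled library 2, and 0 after median scaling or with no filter on low values. Quantile normalization gave 1 rise and 1 fall. Of 9 tested immediate early and heat shock genes, 3 rose (JUN, EGR1 and IER2, by 0.47, 0.33 and 0.29 on the log2 scale), against 10.9% of all tested genes. The part of these shifts in the values of the 38 genes was not tested. Without library 1, 14 of the 38 fell and 1 rose.

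Those of the 38 genes that passed the test, among them ATF4, 6 enzymes and 5 amino acid transporters, were lower in the shSRSF3-labelled libraries. Of the 38 genes, 33 had a mean of at least 0.5 FPKM and were tested with limma on log2(FPKM + 1), adjusted over all 10823 tested rows of the table. At an adjusted p under 0.05, 16 of the 33 fell, against 5.91% of all tested genes. None rose (0 of 33 with limma, 2 at an unadjusted p under 0.05, and 2 with limma voom on recovered fragments), against 10.9% of all tested genes. The median log2 change of the 33 was -0.18, beside 0.02 over all tested genes. In 18 of the 33 all shSRSF3-labelled libraries lay below all control libraries, against 15.3% of all tested genes. In 2 of the 33 they all lay above, against 22.6% of all tested genes. With no filter on low values, 5 of the 16 calls were kept (DDIT4, VLDLR, PSAT1, ALDH1L2 and GPT2), and the other 11 had adjusted p from 0.0522 to 0.207. The 5 genes not tested were ASNS, SESN2, STC2, NUPR1 and CBS.

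**Figure D1:**
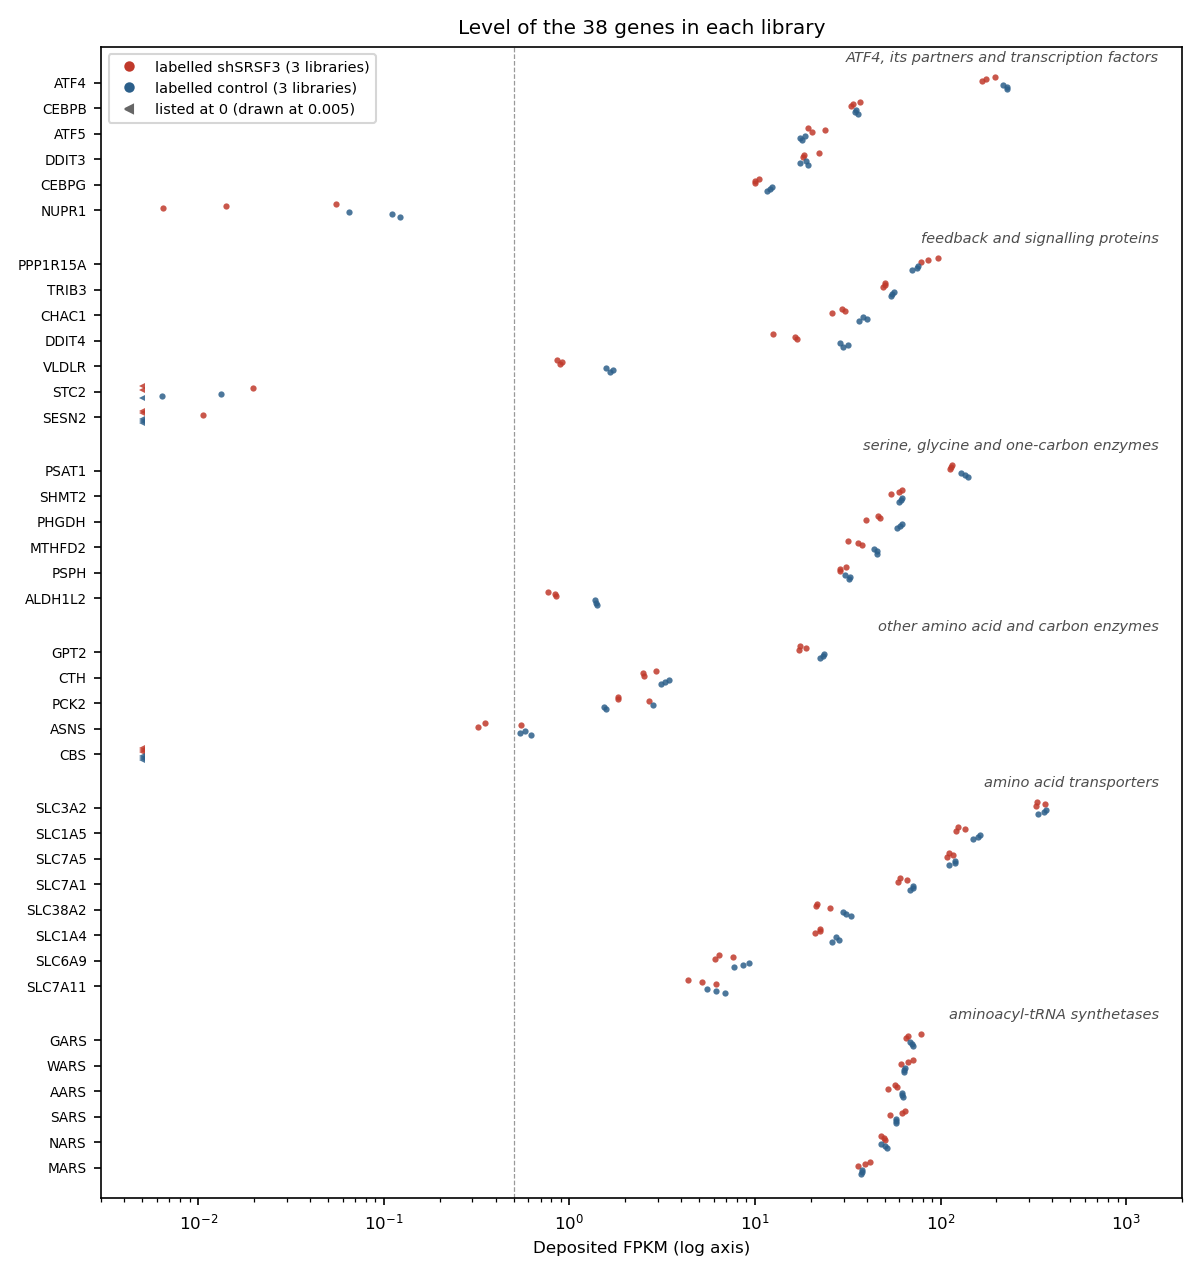
Deposited FPKM of the 38 genes on a log axis, with 1 point per library (red, labelled shSRSF3; blue, labelled control), grouped by role and ordered by mean level. The dashed line is the minimum mean of 0.5 FPKM for testing. Levels span from SLC3A2, at 327.4 to 367.9 FPKM, down to CBS, listed at 0 in all 6 libraries.

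ATF4 itself fell, together with CEBPG, while the other factors of the response did not pass. ATF4 had 195.7, 175.6 and 167.4 FPKM in the shSRSF3-labelled libraries 1 to 3, against 216.5, 229.3 and 228.4 FPKM in the control libraries 1 to 3. The groups did not overlap (log2 change -0.32, SE 0.07, limma adjusted p = 0.0104). It did not pass when control library 2 (adjusted p = 0.0578) or control library 3 (0.0508) was left out, within a range of 4.31e-04 to 0.0919 over the alternatives. CEBPG, a dimer partner of ATF4, had 10.4, 10.0 and 10.0 FPKM in the shSRSF3-labelled libraries, against 12.4, 12.1 and 11.6 FPKM in the control libraries. All 3 shSRSF3-labelled libraries were below all controls (log2 change -0.22, SE 0.05, limma adjusted p = 0.0179). Leaving out control library 1 (adjusted p = 0.0678), control library 2 (0.0822) or shSRSF3-labelled library 2 (0.0624) ended the call, in a range of 0.00882 to 0.0822.

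ATF5, a related factor whose mRNA also carries upstream reading frames, lay on the other side. It had 19.4, 23.8 and 20.3 FPKM in the shSRSF3-labelled libraries, against 18.5, 17.6 and 17.9 FPKM in the control libraries. The groups did not overlap, but the log2 change of 0.22 (SE 0.07) missed the threshold (limma adjusted p = 0.0564). It passed without shSRSF3-labelled library 1 (0.0227) or library 3 (0.0424), and with a minimum mean of 5 FPKM (0.0346). Robust empirical Bayes (0.0481), the replicate block (0.0496) and voom (0.0471) also gave a pass, in a range of 0.0227 to 0.247 over the alternatives. DDIT3 (CHOP), the pro-apoptotic factor of the response, averaged 19.5 ± 2.33 FPKM in the shSRSF3-labelled libraries and 18.5 ± 0.910 FPKM in the control libraries (n = 3 each). Its groups overlapped, with a log2 change of 0.07 (95% interval from -0.10 to 0.24). CEBPB averaged 34.6 ± 2.16 FPKM in the shSRSF3-labelled libraries and 35.2 ± 0.598 FPKM in the control libraries, with an interval from -0.15 to 0.09 (log2). NUPR1, a small stress-induced nuclear protein, had 8, 2 and 1 fragments in the shSRSF3-labelled libraries, against 9, 16 and 19 in the control libraries. Its mean was under the minimum for testing.

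The largest change of the 33 was in DDIT4 (REDD1), an inhibitor of the growth kinase mTORC1. It had 12.5, 16.5 and 16.8 FPKM in the shSRSF3-labelled libraries, against 28.6, 31.6 and 29.7 FPKM in the control libraries. The highest shSRSF3-labelled value lay well under the lowest control value (log2 change -0.94, SE 0.09, limma adjusted p = 2.86e-04), and the call held in all 15 alternatives. CHAC1, which breaks down glutathione and carries the motif shown above, had 29.4, 30.4 and 25.9 FPKM in the shSRSF3-labelled libraries, against 38.1, 40.3 and 36.5 FPKM in the control libraries. It too fell without overlap (log2 change -0.41, SE 0.07, limma adjusted p = 0.00352).

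VLDLR, a lipoprotein receptor induced by ATF4, is a low transcript, with 204 to 424 fragments per library. It had 0.853, 0.916 and 0.894 FPKM in the shSRSF3-labelled libraries, against 1.58, 1.73 and 1.66 FPKM in the control libraries. On the log2(FPKM + 1) scale it fell by 0.49 (SE 0.06, limma adjusted p = 0.00103), and on recovered fragments, where no pseudocount of 1 shrinks a low gene, by 0.90 (log2). The lncRNA table lists its antisense partner VLDLR-AS1 with 48, 49 and 50 recovered fragments in the shSRSF3-labelled libraries, against 64, 76 and 86 in the control libraries. Both rows were thus lower in all 3 shSRSF3-labelled libraries. Whether counting used the strand is not given in the files or labels, so reads of the sense and antisense gene cannot be told apart. The corresponding rows for CEBPB and DDIT4 were low or empty, with 18 to 29 fragments for CEBPB-AS1 and 0 for DDIT4-AS1.

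The feedback genes TRIB3 and PPP1R15A both missed the threshold, on opposite sides of 0. TRIB3, a pseudokinase that restrains ATF4, had 50.5, 50.4 and 49.3 FPKM in the shSRSF3-labelled libraries, against 56.4, 55.0 and 54.3 FPKM in the control libraries. The groups did not overlap, yet the difference was small (log2 change -0.14, SE 0.05, limma adjusted p = 0.0590). It passed with no filter (0.0473), a minimum mean of 5 FPKM (0.0489), the replicate block (0.0486), median scaling (0.0275) and quantile normalization (0.00418), in a range of 0.00418 to 0.192. PPP1R15A (GADD34), which directs a phosphatase to eIF2, had 96.9, 85.2 and 78.8 FPKM in the shSRSF3-labelled libraries, against 75.6, 74.8 and 70.3 FPKM in the control libraries. Every shSRSF3-labelled value was above every control value (log2 change 0.23, SE 0.07, limma adjusted p = 0.0502). It passed without shSRSF3-labelled library 3 (0.0100) and with a minimum mean of 5 FPKM (0.0302) or robust empirical Bayes (0.0419). The replicate block (0.0174) and voom (0.0329) also gave a pass, in a range of 0.0100 to 0.241 over the alternatives. SESN2, a leucine-sensing inhibitor of mTORC1, and STC2, a secreted glycoprotein, had at most 1 and at most 3 fragments in any library and were not tested.

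**Figure D2:**
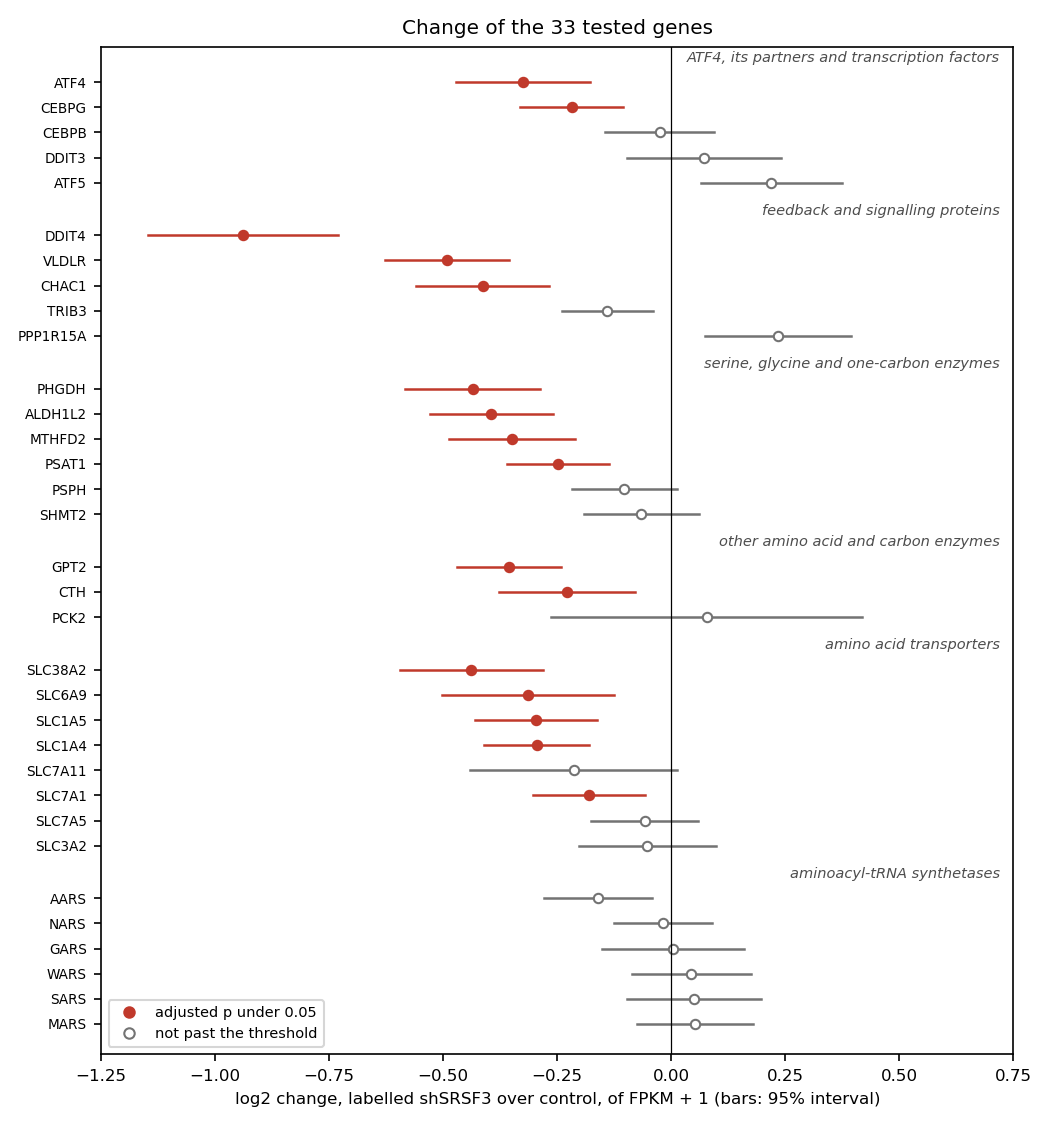
log2 change of the 33 tested genes, labelled shSRSF3 over control, on log2(FPKM + 1), with 95% intervals from limma. Filled red points passed an adjusted p under 0.05. All 16 filled points lie left of 0, from DDIT4 at -0.94 to SLC7A1 at -0.18, and none of the 6 synthetases is filled.

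Of the 6 enzymes of serine, glycine and one-carbon metabolism, 4 fell and none rose (limma; 0 higher at an unadjusted p under 0.05 and 0 with voom). Over all tested genes 5.91% fell and 10.9% rose. Serine is made from a glycolytic intermediate by PHGDH, PSAT1 and PSPH in turn, and its carbon is then passed to folate in mitochondria by SHMT2 and MTHFD2. PHGDH, the entry step, had 46.1, 47.3 and 39.6 FPKM in the shSRSF3-labelled libraries, against 61.7, 60.5 and 58.2 FPKM in the control libraries. The groups stood well apart (log2 change -0.44, SE 0.07, limma adjusted p = 0.00307). PSAT1 had 115.0, 113.8 and 112.0 FPKM in the shSRSF3-labelled libraries, against 129.6, 136.2 and 139.7 FPKM in the control libraries. It fell by 0.25 (log2, SE 0.05, limma adjusted p = 0.0106), a call lost without control library 2 (0.0661) or control library 3 (0.0626), in a range of 0.00113 to 0.0661. PSPH, the last step, averaged 29.6 ± 1.33 FPKM in the shSRSF3-labelled libraries and 31.8 ± 1.13 FPKM in the control libraries (n = 3 each), with groups that overlapped (95% interval of the log2 change from -0.22 to 0.01). With quantile normalization PSPH passed as lower (limma adjusted p = 0.0413).

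The mitochondrial folate enzymes also differed among themselves. MTHFD2 had 31.8, 35.7 and 37.6 FPKM in the shSRSF3-labelled libraries, against 43.6, 45.6 and 45.3 FPKM in the control libraries (log2 change -0.35, SE 0.06, limma adjusted p = 0.00603). ALDH1L2, which oxidises a folate carrying a formyl group, had 0.771, 0.840 and 0.848 FPKM in the shSRSF3-labelled libraries, against 1.37, 1.40 and 1.41 FPKM in the control libraries. Neither gene had overlapping groups, and ALDH1L2 fell by 0.39 (log2, SE 0.06, limma adjusted p = 0.00307), or by 0.76 on recovered fragments. SHMT2, the step between them and serine, stood at 58.5 ± 3.97 FPKM in the shSRSF3-labelled libraries and 61.2 ± 1.04 FPKM in the control libraries, with a log2 interval from -0.19 to 0.06. With quantile normalization SHMT2 passed as lower (limma adjusted p = 0.0231).

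Of the other 5 enzymes, GPT2 and CTH fell, PCK2 did not pass, and ASNS and CBS were under the minimum mean for testing. GPT2, the mitochondrial alanine aminotransferase, had 17.5, 18.8 and 17.2 FPKM in the shSRSF3-labelled libraries, against 23.6, 23.3 and 22.4 FPKM in the control libraries. It fell by 0.36 (log2, SE 0.05, limma adjusted p = 0.00240), and the call held in all 15 alternatives. CTH, which releases cysteine from cystathionine, averaged 2.65 ± 0.244 FPKM in the shSRSF3-labelled libraries and 3.27 ± 0.160 FPKM in the control libraries (n = 3 each; log2 change -0.23, SE 0.07, limma adjusted p = 0.0426). Its groups did not overlap, but it did not pass after leaving out control library 1, 2 or 3 (0.125, 0.130 and 0.0883) or shSRSF3-labelled library 2 or 3 (0.136 and 0.0664), nor with quantile normalization (0.0765) or voom (0.0964), in a range of 0.0193 to 0.144.

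PCK2, a mitochondrial enzyme that feeds carbon back from the citric acid cycle, varied more within groups than between them. It had 1.83, 1.82 and 2.69 FPKM in the shSRSF3-labelled libraries, against 2.82, 1.54 and 1.58 FPKM in the control libraries. One library in each group stood above the other two, so the log2 change of 0.08 had a wide interval, from -0.26 to 0.42. ASNS, asparagine synthetase, had 40, 61 and 39 fragments in the shSRSF3-labelled libraries, against 63, 62 and 76 in the control libraries, or 0.407 ± 0.125 and 0.581 ± 0.040 FPKM. The groups overlapped, since shSRSF3-labelled library 2 lay inside the control range in FPKM, and the mean of this row was under the minimum for testing. CBS, which makes the cystathionine that CTH uses, was listed at 0 in every library. As VARS and SARS2 were too, this 0 is not read as a level.

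All 8 amino acid transporters had log2 changes below 0, and 5 of them passed, where 5.91% of all tested genes fell. SLC38A2 (SNAT2), a sodium-coupled carrier of small neutral amino acids, had 21.6, 21.2 and 25.5 FPKM in the shSRSF3-labelled libraries, against 29.7, 30.9 and 32.8 FPKM in the control libraries. It fell the most of the 8 (log2 change -0.44, SE 0.07, limma adjusted p = 0.00369). SLC1A5 (ASCT2), the main glutamine carrier of many tumour cells, had 124.1, 136.0 and 121.8 FPKM in the shSRSF3-labelled libraries, against 162.3, 158.2 and 149.0 FPKM in the control libraries. Its log2 change was -0.30 (SE 0.06, limma adjusted p = 0.0103), a call lost without control library 2 (0.0571), in a range of 0.00101 to 0.0809. SLC1A4 (ASCT1), its relative for alanine, serine and cysteine, averaged 22.0 ± 0.715 FPKM in the shSRSF3-labelled libraries and 27.2 ± 1.26 FPKM in the control libraries, and fell equally (log2 change -0.30, SE 0.05, limma adjusted p = 0.00570). The groups of these 3 carriers did not overlap.

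Smaller or less firm changes were seen for the carriers of glycine and of cationic amino acids. SLC6A9, a glycine transporter, had 6.39, 7.61 and 6.06 FPKM in the shSRSF3-labelled libraries, against 9.34, 8.62 and 7.69 FPKM in the control libraries. The lowest control value sat just above the highest shSRSF3-labelled one (log2 change -0.31, SE 0.09, limma adjusted p = 0.0316), and the call was lost without control library 1 (0.107), control library 2 (0.0962), shSRSF3-labelled library 1 (0.0663) or shSRSF3-labelled library 3 (0.0579), in a range of 0.0151 to 0.207. SLC7A1 (CAT1), for arginine and lysine, averaged 61.8 ± 3.71 FPKM in the shSRSF3-labelled libraries and 70.1 ± 1.83 FPKM in the control libraries (log2 change -0.18, SE 0.06, limma adjusted p = 0.0477). Leaving out control library 1, 2 or 3 (0.138, 0.172 and 0.101) or shSRSF3-labelled library 1 or 3 (0.0758 and 0.0691) ended this call, in a range of 0.00292 to 0.172.

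The 3 genes of the SLC3A2 heterodimers did not pass. SLC3A2, the heavy chain that light chains such as SLC7A5 and SLC7A11 need at the membrane, was the most abundant of the 38, at 342.6 ± 21.8 FPKM in the shSRSF3-labelled libraries and 355.2 ± 17.1 FPKM in the control libraries (n = 3 each; log2 interval from -0.20 to 0.10). SLC7A5 (LAT1), its partner for leucine uptake, stood at 112.1 ± 3.79 FPKM in the shSRSF3-labelled libraries and 116.8 ± 4.40 FPKM in the control libraries, with an interval from -0.18 to 0.06. With quantile normalization SLC7A5 passed as lower (limma adjusted p = 0.01665). SLC7A11 (xCT), which imports cystine, had 4.38, 5.16 and 6.15 FPKM in the shSRSF3-labelled libraries, against 5.50, 6.19 and 6.91 FPKM in the control libraries. These groups overlapped (log2 change -0.21, 95% interval from -0.44 to 0.01, limma adjusted p = 0.174). The gene passed without shSRSF3-labelled library 3 (0.0315) and with the replicate block (0.0268), in a range of 0.0268 to 0.504.

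Among the 6 aminoacyl-tRNA synthetases, which load amino acids onto their tRNAs, 0 fell and 0 rose in limma (1 lower and 0 higher at an unadjusted p under 0.05; 0 and 0 with voom). Over all tested genes 5.91% fell and 10.9% rose, so counts of 0 among 6 do not set the synthetases apart. Their median log2 change was 0.02, beside 0.02 over all tested genes, but it was -0.09 with quantile normalization, where all 6 were below 0, and it was also just below 0 with median scaling and without shSRSF3-labelled library 1. WARS, for tryptophan, had 71.0, 66.7 and 60.9 FPKM in the shSRSF3-labelled libraries, against 64.6, 63.8 and 63.9 FPKM in the control libraries. Its control values thus fell inside the span of the shSRSF3-labelled ones, as did those of SARS, GARS and MARS. The 95% intervals of the log2 change ran from -0.09 to 0.17 for WARS, -0.10 to 0.20 for SARS (serine), -0.08 to 0.18 for MARS (methionine), -0.15 to 0.16 for GARS (glycine) and -0.13 to 0.09 for NARS (asparagine). AARS, for alanine, was the exception in position, with 57.0, 58.0 and 51.9 FPKM in the shSRSF3-labelled libraries, against 61.6, 62.0 and 63.0 FPKM in the control libraries. Its groups did not overlap, and it missed the threshold (log2 change -0.16, SE 0.05, limma adjusted p = 0.0657), which it passed with median scaling (0.0338), quantile normalization (0.00405) and a minimum mean of 5 FPKM (0.0486), in a range of 0.00405 to 0.199.

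Among the shSRSF3-labelled libraries, library 1, which stood apart in mitochondrial mRNAs, was the highest of all 6 libraries for 4 synthetases (WARS, SARS, GARS and MARS), and its part in their values was not tested. The summed FPKM of the 6 synthetases was 105.8, 100.2 and 93.1% of the control mean in shSRSF3-labelled libraries 1 to 3, whereas that of the 6 serine, glycine and one-carbon enzymes was 85.7, 85.4 and 81.6%. The sum of ATF4 and its companion factors, most of it ATF4, was 92.3, 84.9 and 80.6% of the control mean.

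**Figure D3:**
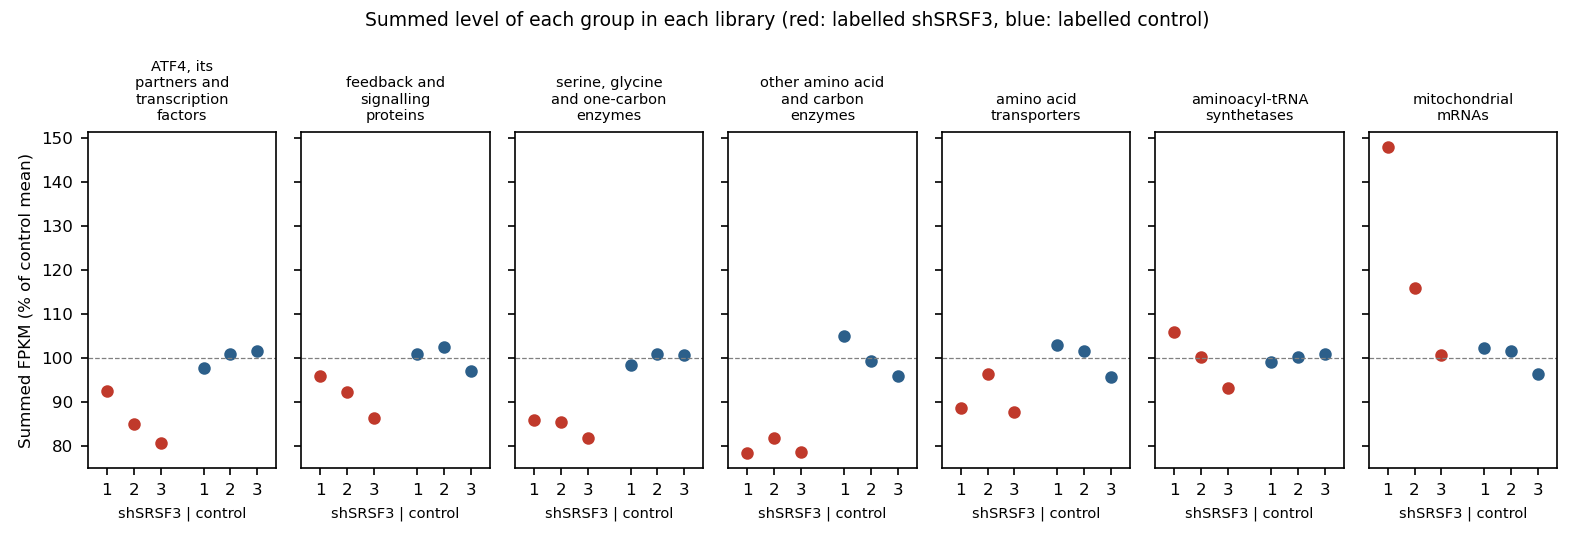
Summed FPKM of each group of genes in each library, as a percentage of the mean of the 3 control libraries (red, labelled shSRSF3 1 to 3; blue, control 1 to 3). Sums weight abundant genes most, and the summed FPKM of the whole mRNA table differed between libraries. The enzyme groups lie at 78.3 to 85.7% in the red libraries, the synthetases at 93.1 to 105.8%, and mitochondrial mRNAs reach 147.8% in the first red library.

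Further genes of the pathway were followed through lists beside the 38. Of 13 tested other targets and partners of ATF4, 4 fell and 1 rose, where 5.91% of all tested genes fell and 10.9% rose. ADM2, a peptide hormone gene, averaged 10.9 ± 0.718 FPKM in the shSRSF3-labelled libraries and 13.6 ± 0.292 FPKM in the control libraries, and fell by 0.29 (log2, adjusted p = 0.00830 with limma). The tRNA exporter gene XPOT, the dimer partner JDP2 and VEGFA fell by 0.22, 0.29 and 0.21 (log2). GDF15, a secreted stress hormone that p53 also induces, rose, at 857.0, 858.9 and 821.6 FPKM in the shSRSF3-labelled libraries, against 595.9, 569.5 and 537.9 FPKM in the control libraries (log2 change 0.58, limma adjusted p = 7.98e-04). ATF3 stood at 13.0 ± 0.223 FPKM in the shSRSF3-labelled libraries and 12.3 ± 0.590 FPKM in the control libraries, with a log2 change of 0.08 (limma adjusted p = 0.328). Without any 1 library, 1 or 2 genes of the list fell, with 1 without control library 2 or 3 or shSRSF3-labelled library 2 and 2 otherwise. With no filter on low values, 0 fell and 1 rose.

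Upstream, 1 of 15 tested genes of the eIF2 kinases and eIF2 machinery fell and 3 rose. Over all tested genes 5.91% fell and 10.9% rose. The gene of the 15 that fell was EIF2AK3 (PERK), the kinase of the endoplasmic reticulum, with 3.06, 3.27 and 3.30 FPKM in the shSRSF3-labelled libraries, against 4.52, 4.38 and 4.41 FPKM in the control libraries (log2 change -0.37, SE 0.06, limma adjusted p = 0.00290). The amino acid sensor kinase EIF2AK4 (GCN2) had a log2 change of -0.01, at 10.4 ± 0.198 FPKM in the shSRSF3-labelled libraries and 10.51 ± 0.248 FPKM in the control libraries. EIF2B2, EIF2B3 and EIF2B4, subunits of the complex that recharges eIF2, rose by 0.24, 0.24 and 0.26 (log2), and 1 gene of the list rose without control library 3. Of 13 tested targets of the other unfolded protein sensors ATF6 and IRE1, 5 fell and 0 rose (3 higher at an unadjusted p under 0.05, and 0 with voom). HERPUD1 fell by 0.37, DNAJB9 by 0.31, XBP1 by 0.23, SEL1L by 0.21 and DNAJC3 by 0.21 (log2). HSPA5 (BiP), the main chaperone of the compartment, averaged 443.6 ± 23.7 FPKM in the shSRSF3-labelled libraries and 436.6 ± 2.58 FPKM in the control libraries, with a log2 change of 0.02 (limma adjusted p = 0.839). The list had 3 falls without control library 1 or shSRSF3-labelled library 1, 2 without shSRSF3-labelled library 2, and 1 without control library 2 or 3. Its rises numbered 2 with the replicate block or without shSRSF3-labelled library 3, and 1 without shSRSF3-labelled library 1.

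Amino acid genes outside the 38 held both falls and rises, beside 5.91% lower and 10.9% higher over all tested genes. Of 19 tested other amino acid and one-carbon enzymes, 1 fell and 3 rose, near these shares. ASS1, of arginine synthesis, fell by 0.31, while BCAT2, SDSL and GOT2 rose by 0.34, 0.24 and 0.21 (log2), with 1 or 2 rises without any 1 library but shSRSF3-labelled library 3, where there were 5. The list had 0 falls without control library 2 and with no filter on low values, where 1 rose. PYCR1, a proline synthesis enzyme often grouped with ATF4 targets, was at 41.1 ± 1.66 FPKM in the shSRSF3-labelled libraries and 39.9 ± 1.13 FPKM in the control libraries, with a log2 change of 0.04 (limma adjusted p = 0.574). Of 16 tested other amino acid transporters, SLC7A7 and SLC1A1 fell by 0.40 and 0.39 (log2), and SLC25A22, SLC1A3 and SLC36A1 rose by 0.36, 0.32 and 0.20 (1 rise without control library 2).

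Over all tested genes 5.91% fell and 10.9% rose. Of 14 tested cytosolic synthetases outside the 38, 0 fell and 3 rose (limma; 0 lower at an unadjusted p under 0.05 and 0 with voom). The 3 were FARSA, QARS and KARS, by 0.26, 0.20 and 0.18 (log2). These rises depended on scaling, with 1 left after median scaling and 0 after quantile normalization, and 0 were left without any 1 of the control libraries or of shSRSF3-labelled libraries 1 and 2. Of 15 tested mitochondrial synthetases, MARS2 and EARS2 rose by 0.34 and 0.26 (log2) and 0 fell (0 at an unadjusted p under 0.05, and 0 with voom), with 1 rise without control library 2 or 3 or shSRSF3-labelled library 2. In amino acid sensing by mTORC1, the kinase that DDIT4 restrains, 4 of 26 tested genes rose, where 10.9% of all tested genes did (RPTOR, WDR24, NPRL3 and RRAGA, by 0.23, 0.23, 0.21 and 0.21) and SESN3 fell by 0.29 (log2). The list had 0 rises and 0 falls without control library 2, control library 3 or shSRSF3-labelled library 2, and with no filter on low values. Its rises numbered 1 without control library 1 and with quantile normalization, and 2 without shSRSF3-labelled library 1 and with median scaling. With no filter, the cytosolic and the mitochondrial synthetases outside the 38 also had 0 rises, and the ATF6 and IRE1 targets had 1 fall.

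**Figure D4:**
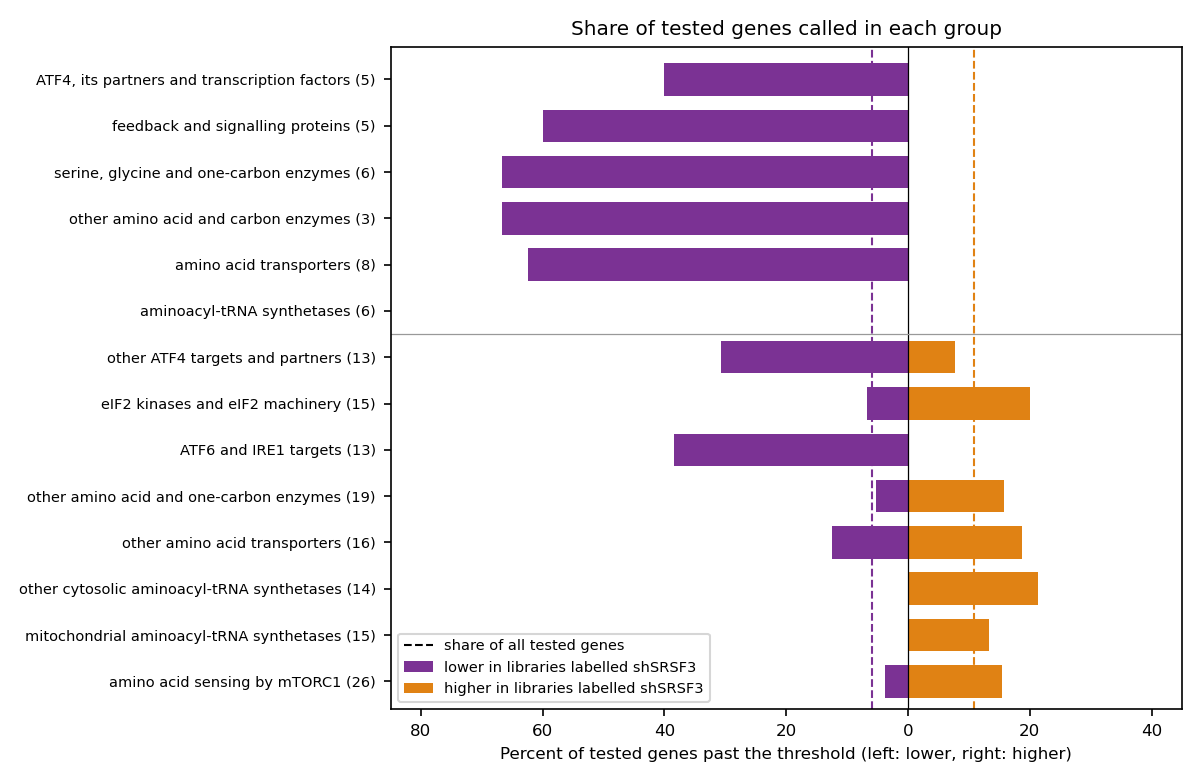
Percent of tested genes past an adjusted p under 0.05 in each group, lower to the left and higher to the right, with the number tested in brackets. Dashed lines are the shares over all tested genes, 5.91% lower and 10.9% higher. Above the grey line are the 6 roles of the 38 genes, of which the synthetases have no bar, and below it the lists beside them.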

How the data were processed

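RNA of 6 libraries was measured. The authors deposited FPKM per gene symbol, in an mRNA and a lncRNA table, per the file headers. Per the submitters' processing notes, the tools were edgeR, Cuffdiff, StringTie and HISAT2, with no role or version stated. Both polyadenylated selection and a stranded rRNA-depleted preparation are described per the labels' protocols, and which gave these values, the genome build and the annotation were not stated there, nor in the files. From the FPKM steps, whole fragments and library totals were recovered, within a tolerance of 0.003 fragments, for 14776 of 14803 mRNA rows above 0 in at least 3 libraries, and 0 of the 38 genes were off these steps. Gene lengths are the smallest that gave whole numbers.

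The whole mRNA table was fitted with limma 3.58.1 in R 4.3.3 (trend, two-sided, Benjamini-Hochberg) on log2(FPKM + 1) with no rescaling, keeping rows whose mean reached 0.5 FPKM. Such log2 changes understate low genes. The procedure was tested on simulated data. Alternatives were a pseudocount of 0.1, 2 other filters, a replicate block, quantile normalization, median scaling, robust empirical Bayes, voom and each library left out, and, chosen after seeing the data, leaving out the rows off the steps. All of the 38 genes were to be named, with at most 6 passing genes per other list and 7 fixed ones. The genes and lists were chosen with earlier results of these data known. Symbols of 6 synthetases, PYCRL and GATSL3 were matched through newer RefSeq names. No 2 libraries of a group matched within sampling noise (chi-square per degree of freedom at least 3.26). Each was counted as 1 replicate, though this excess cannot tell separate cultures from separate preparations of 1 culture.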

Additional observations from a re-analysis of the deposited data

How the results depend on the processing

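Of the 16 falls, 16 kept their direction in all alternatives in which they were tested, 9 kept their call without each library in turn, and 4 (DDIT4, GPT2, VLDLR and ALDH1L2) kept it in every alternative that tested them. Against 16 genes lower and 0 higher, no filter gave 6 lower, leaving out 1 library gave 9 to 14 lower and 0 to 2 higher, and a minimum mean of 5 FPKM, robust empirical Bayes, the replicate block and voom each gave 2 higher, ATF5 and PPP1R15A. Over the table, 1819 genes passed, against 400 with no filter and 643 to 2742 without 1 library. Of the calls 64.8% were higher, with 1179 higher and 640 lower, against 930 and 805 (53.6% higher) after median scaling, 816 and 810 (50.2%) after quantile normalization and 212 and 188 (53.0%) with no filter. Quantile normalization also gave 20 genes lower of the 38, among them PSPH, SHMT2, SLC7A5, TRIB3 and AARS, which did not pass in the main fit. The signs that turned were of genes that had not passed. With quantile normalization the log2 changes were -0.072 for WARS, -0.052 for SARS, -0.10 for GARS and -0.034 for MARS, and with median scaling -0.023 for GARS. Without 1 library they ranged from -0.020 to 0.12 for DDIT3, -0.0735 to 0.0108 for CEBPB, -0.0509 to 0.27 for PCK2, -0.0076 to 0.10 for WARS, -0.0022 to 0.13 for SARS, -0.0828 to 0.0537 for GARS and -0.0464 to 0.0018 for NARS. The cause was not tested.

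Same-numbered libraries of the groups had correlations of deviations of 0.0776, 0.0385 and 0.279, so the numbers were not read as pairs. With the replicate block 18 genes fell, with TRIB3 (adjusted p = 0.0486) and SLC7A11 (0.0268) called beside the 16, and 2323 passed in all, while 2 of 3 shSRSF3-labelled libraries correlated best with their own number. NUPR1, SESN2 and STC2 had at most 19 fragments in any library, and ASNS at most 76. Their means were under the minimum of 0.5 FPKM, so these genes were described and not tested. The cause of the low values was not tested.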
